A study of Mus musculus with 2 samples.

Results

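Type XII, XIV and XVI collagen and type VI collagen are the collagens that coat, link and surround the large collagen fibrils of connective tissue. Their genes counted here were Col12a1, Col14a1, Col16a1, Col6a1, Col6a2 and Col6a3. They were chosen by symbol and not by a measured value, but with earlier results of these data known. They were 6 of the 27998 genes in the count table, and each had 1 row. Single cells came from limb tendons of mice at postnatal day 7 (P7), in 1 wild-type and 1 mutant library, each pooled from fore- and hindlimb tendons of 2 pups. Mutant pups were Tgfbr2 f/-;ScxCre, in which Cre driven by Scleraxis (Scx) sequences removes a floxed part of Tgfbr2, the type II TGFβ receptor, in cells of the tendon lineage. This Cre is not active in all tenocytes of the embryo and reaches all of them only after birth, and how many of the mutant cells counted here had lost the receptor was not tested. All mice of the study also carried ScxGFP, a tendon reporter, and RosaT, a tdTomato reporter of Cre activity. The control is wild type by title and genotype, but another label of the same library calls it Het. The surface of the tendons was not scraped before digestion, so cells of the tendon sheath may have remained in both libraries.

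FACITs are fibril-associated collagens with interrupted triple helices. Type XII and XIV collagen lie on the surface of type I collagen fibrils and are thought to act in fibril spacing and growth, with type XII found where load is carried and type XIV mainly in developing tissue. Type XVI collagen, counted with the FACITs, is a minor collagen of fibrils and microfibrils near cells. Type VI collagen is built from an α1, an α2 and an α3 chain, encoded by Col6a1, Col6a2 and Col6a3, which assemble into beaded microfilaments around cells, in tendon around the tenocytes.

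Positions were read from GENCODE M21 for GRCm38, the assembly that mm10 denotes. Col6a2 (ENSMUSG00000020241) lies on the minus strand of chromosome 10 from 76595762 to 76623630 and Col6a1 (ENSMUSG00000001119) on the same strand from 76708792 to 76726168. A stretch of 85161 bases separates these neighbours, and the only gene annotated between them does not code for protein. Col6a3 (ENSMUSG00000048126) lies on the minus strand of chromosome 1 from 90765923 to 90843971. Col12a1 (ENSMUSG00000032332) lies on the minus strand of chromosome 9 from 79598991 to 79718831, and Col14a1 (ENSMUSG00000022371) on the plus strand of chromosome 15 from 55307750 to 55520803. Col16a1 (ENSMUSG00000040690) lies on the plus strand of chromosome 4 from 130047840 to 130099283. The libraries tag the 3′ ends of transcripts, and 0 of the 6 genes shared its last 2000 bases with another annotated gene. Col12a1 and Col14a1 each overlap elsewhere with 1 antisense gene that is also in the count table.

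Col6a1 and Col6a2 had the closest patterns of all the pairs among these genes (given further on), while Col16a1 and Col6a3 each lay apart from them in 1 or more comparisons. The promoters of the type VI chains and of Col16a1 are shown because only these 4 members were in the promoter set used. They are RefSeq sequences on GRCm38.p6, written 5′ to 3′ on the strand of the gene, and end at the base before the gene model. Capitals mark the E-box CANNTG, the core letters bound by basic helix-loop-helix factors, the family to which Scx belongs. The sequences are Col6a1 at chr10:76726169-76726294, Col6a2 at chr10:76623631-76623880, Col6a3 at chr1:90843972-90844221 (all on the minus strand) and Col16a1 at chr4:130047590-130047839.
Col6a1: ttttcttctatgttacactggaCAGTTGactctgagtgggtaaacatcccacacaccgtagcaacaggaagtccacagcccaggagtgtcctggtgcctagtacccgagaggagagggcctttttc
Col6a2: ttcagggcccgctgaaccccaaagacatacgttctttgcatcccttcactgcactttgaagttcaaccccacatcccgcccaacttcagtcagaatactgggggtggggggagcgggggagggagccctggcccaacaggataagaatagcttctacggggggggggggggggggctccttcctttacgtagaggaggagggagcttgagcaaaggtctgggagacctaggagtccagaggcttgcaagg
Col6a3: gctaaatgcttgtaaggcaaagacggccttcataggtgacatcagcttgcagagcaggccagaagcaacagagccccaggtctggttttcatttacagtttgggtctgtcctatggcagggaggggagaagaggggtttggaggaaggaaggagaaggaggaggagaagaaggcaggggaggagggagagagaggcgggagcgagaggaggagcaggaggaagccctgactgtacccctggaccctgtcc
Col16a1: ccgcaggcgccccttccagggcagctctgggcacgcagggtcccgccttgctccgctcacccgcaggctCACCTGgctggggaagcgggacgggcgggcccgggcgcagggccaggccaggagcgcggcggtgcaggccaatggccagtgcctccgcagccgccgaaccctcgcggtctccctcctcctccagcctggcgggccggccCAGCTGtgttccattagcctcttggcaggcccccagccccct
RefSeq also has a Col6a2 start 226 bases inside the gene model, whose promoter is not printed. The Col6a1 sequence has 126 bases, because the first base of its GENCODE model lies 124 bases before the RefSeq start, and the others have 250. In the 250 bases before the RefSeq start, CANNTG had 1 match in Col6a1, 2 in Col16a1 and 0 in Col6a3 and at both starts of Col6a2. It was present in 66.2% of 32851 promoters cut the same way. CAGAC, the core letters bound by Smads, searched on both strands, had 1 match in Col6a2 at the start shown and 0 at its other start, 2 in Col6a3 and 0 in the others, against 42.2% of promoters with a match. GGGCGG, the core letters of the GC box, on both strands, had 1 match in Col6a2 at the start shown and 3 at its other start, and 1 in Col16a1 (32.7% of promoters), and TATAAA, the TATA box, on both strands, had 0 in all 4 (12.4%). No E-box shown overlapped another of these motifs. No promoter sequence is printed for Col12a1 and Col14a1, which were not in the promoter set used.

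The wild-type library held 2364 cells and 9451606 UMIs (unique molecular identifiers, each marking 1 captured mRNA molecule), with a median of 3866.5 UMIs per cell. The mutant library held 2592 cells and 8250248 UMIs, with a median of 2828. The libraries shared 2 cell barcodes. Scx-high cells had at least 30 Scx UMIs per 10000, in counts that include the ScxGFP transgene, and made up 1178 wild-type (49.8%) and 235 mutant cells (9.07%). Scx-low fibroblasts were the other cells with at least 5 UMIs over Ly6a, Cd34, Dpt, Lum and Col3a1 and without markers of another type, and numbered 717 (30.3%) and 1827 (70.5%). The name is a rule on counts, says nothing of where a cell lay or what it came from, and takes in cells that kept Tnmd. Mural cells, the pericytes and smooth muscle cells of vessels, numbered 139 and 84, and immune cells 177 and 194. Tnmd, a membrane protein of tenocytes, stood at 7393 CPM (a gene's UMIs over all UMIs of the class, scaled to 1000000) in Scx-high cells and 1177 in Scx-low fibroblasts of the wild-type library, and at 5404 and 1048 in the mutant library. All 8 mural markers were counted in the mural cells of both libraries, with Rgs5 at 2338 and 3224 CPM. The same markers were used to assign these cells, so their levels do not check the class. Tgfbr2 had 152 wild-type and 49 mutant UMIs in Scx-high cells, or 30.9 and 45.2 CPM. A 3′ count can persist after an upstream exon is removed, so it does not check the labels. With 1 library per genotype there is no spread between replicates, no test was run, and genotype and library cannot be told apart. Intervals are exact, at the 95% level, and cover counting error only.

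In the wild-type library the 6 collagens stood between 258 (Col14a1) and 1691 CPM (Col6a1) in Scx-high cells, and 5 of them had their highest level there among the classes compared. Col12a1 stood at 743 CPM (95% interval 719 to 767) in Scx-high cells, 155 (140 to 170) in Scx-low fibroblasts and 261 (224 to 303) in mural cells. Type XII collagen was therefore the member with the steepest difference between Scx-high cells and Scx-low fibroblasts. Col16a1 stood at 571 (550 to 593), 171 (156 to 187) and 113 CPM (89.4 to 142) in these classes. Col6a1 stood at 1691 (1655 to 1728), 1100.1 (1061 to 1140) and 561 CPM (506 to 621), and Col6a2 at 1369 (1337 to 1403), 869 (834 to 904) and 445 (396 to 498). For these 2 chains the classes stood in the same order, with intervals that did not overlap. Col6a3, the largest chain of type VI collagen, stood at 1085 (1056 to 1115), 426 (402 to 451) and 518 CPM (465 to 576), so mural cells lay above Scx-low fibroblasts. Col14a1 was the exception, with 258 CPM (244 to 273) in Scx-high cells, 329.7 (309 to 352) in Scx-low fibroblasts and 142 (115 to 173) in mural cells. With fibroblasts assigned before other types, 40 wild-type mural cells remained, with 2 UMIs of Col14a1. Its mural level thus came almost wholly from cells that also met the fibroblast cut. The mural levels of the other members include the same cells and are not given without them.

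In the mutant library Scx-high cells had a higher level than Scx-low fibroblasts for all 6 members as counted. Col12a1 stood at 922 CPM (866 to 981) in Scx-high cells and 259.5 (247 to 273) in Scx-low fibroblasts, both above the wild-type values as counted. Col14a1 stood at 396 CPM (359.5 to 435) in Scx-high cells and 321 (306 to 336) in Scx-low fibroblasts. Scx-high cells were thus the higher class for type XIV collagen in the mutant and the lower class in the wild-type library as counted, but the higher class in both when centred on the median gene. Col16a1 stood at 289.9 (259 to 324) and 169 CPM (158 to 179.5) in the 2 classes. Col6a1 stood at 869 (814 to 926) and 795 CPM (772 to 819), and Col6a2 at 774 (722 to 828) and 587 (567 to 607). Col6a3 stood at 822 CPM (769 to 878) and 534 (515 to 553). All 3 type VI chains thus lay under their wild-type levels in Scx-high cells, and Col6a3 lay above its wild-type level in Scx-low fibroblasts.

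**Figure D1:**
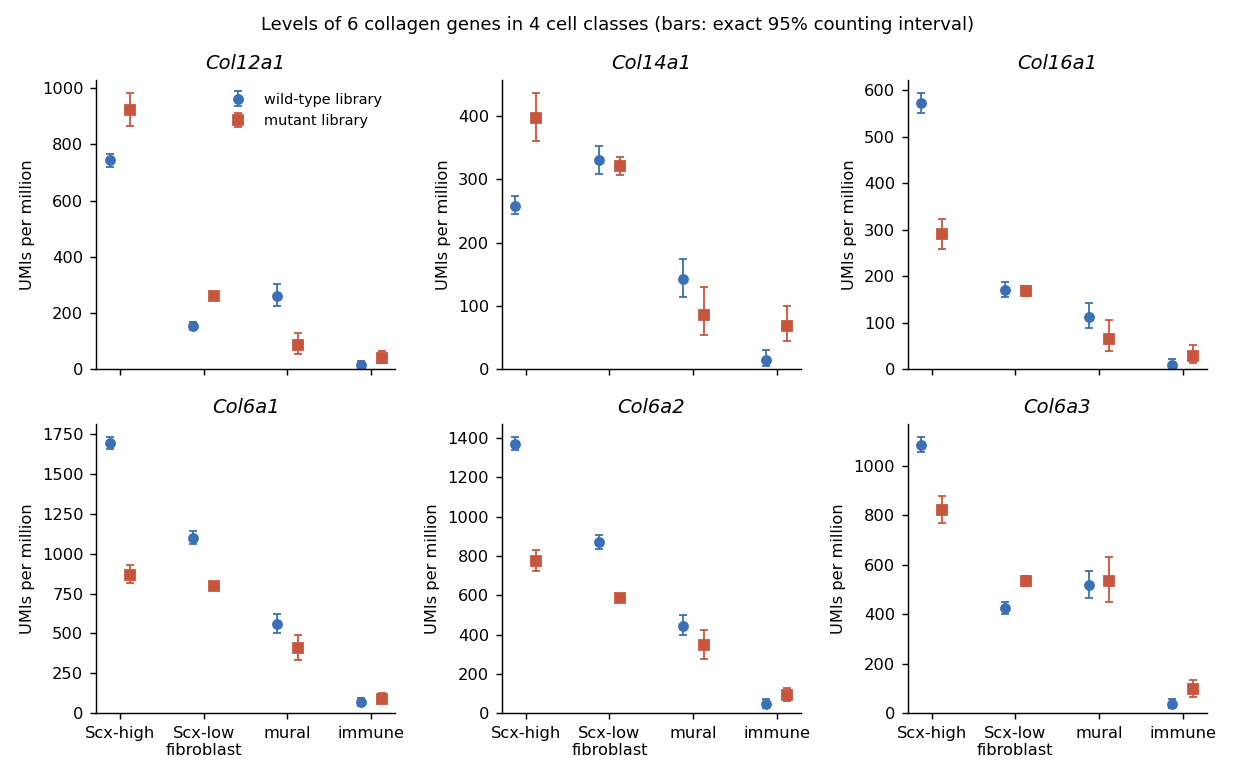
Level of each member in CPM (vertical axis, from 0) in Scx-high cells, Scx-low fibroblasts, mural cells and immune cells, with wild-type (circles) and mutant (squares) libraries side by side and exact 95% counting intervals as bars. Col12a1 is at 743 CPM in wild-type Scx-high cells and 155 in Scx-low fibroblasts, while Col14a1 is at 258 and 329.7, and all members are under 100 CPM in immune cells.

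Immune and red blood cells held few UMIs of these collagens. In immune cells the members ranged from 8.49 (Col16a1) to 70.0 CPM (Col6a1) in the wild-type library and from 28.8 (Col16a1) to 96.9 (Col6a3) in the mutant library. In haemoglobin-rich red blood cells the wild-type library held at most 9 UMIs of a member, Col6a1 at 18.4 CPM, and the mutant library at most 1. In 29 endothelial cells of the mutant library the members lay between 18.2 (Col14a1) and 109 CPM (Col6a1), on 2 to 12 UMIs. In 49 neural cells, found almost only in the mutant library, they lay between 50.5 (Col12a1) and 209 CPM (Col14a1), on 7 to 29 UMIs. After each cell was thinned to 1644 UMIs, Col12a1 was found in 67.3% (64.4 to 70.1) of wild-type Scx-high cells, 19.0% (16.1 to 22.2) of Scx-low fibroblasts and 2.27% (0.471 to 6.50) of immune cells. Counted on all UMIs, the gene was in 88.6%, 32.9% and 3.39% of the cells of these classes, whose medians were 4285.5, 3610 and 2380 UMIs per cell. Thinning left out 106, 54 and 45 cells. Col6a1 was the most widely found member, in 90.9% (89.0 to 92.5) of wild-type and 67.8% (61.0 to 74.0) of mutant Scx-high cells after thinning, which left out 24 mutant cells. Unthinned, it was in 97.5% and 86.0% of the cells, with like medians of 4285.5 and 4251 UMIs.

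The UMIs of a gene were also shared out unevenly among cells. Among wild-type Scx-high cells the 10% of cells with the most UMIs of Col14a1 held 54.9% of its UMIs, and the same share of cells held 25.6% for Col12a1 and 23.5% for Col6a1. Col14a1 was found in 25.6% of these cells after thinning (40.5% without), and its variance over its mean was 2.21, the highest of the 6 genes in this class. In wild-type mural cells the top 10% of cells held 87.4% of the Col14a1 UMIs, and the gene was found in 18.7% of the cells without thinning. Col12a1 and Col14a1 were found in the same thinned cell in 18.0% of wild-type Scx-high cells, where the product of their separate shares was 17.2%. In mutant Scx-high cells they were found together in 27.0%, against a product of 24.0%. UMIs of all 3 type VI chains were found in 61.2% of thinned wild-type and 35.1% of thinned mutant Scx-high cells, and of none in 0.933% and 10.4%.

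Which collagens differed between the classes was read from Scx-low fibroblasts over Scx-high cells. In the wild-type library, 3 of 6 members were at least 2-fold lower in Scx-low fibroblasts, where 5.19% of 8499 genes were, and 0 were at least 2-fold higher, where 17.5% of genes were. Here and below genes had at least 50 UMIs over both groups. The ratio was 0.208 (0.188 to 0.230) for Col12a1, 0.300 (0.271 to 0.330) for Col16a1 and 0.392 (0.368 to 0.418) for Col6a3. It was 0.650 (0.624 to 0.678) for Col6a1 and 0.634 (0.605 to 0.665) for Col6a2. The median of all genes was shifted by 0.42 on the log2 scale in this comparison, and relative to it the members ranged from -2.69 (Col12a1) to -0.07 (Col14a1). Col14a1 had a ratio of 1.28 (1.17 to 1.39) as counted and 0.951 when centred on the median gene, so its direction rests on the scaling.

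In the mutant library, 1 of 6 members was at least 2-fold lower in Scx-low fibroblasts, where 4.77% of 8525 genes were, and 0 were at least 2-fold higher, where 11.0% were. That member was Col12a1, at 0.281 (0.260 to 0.305). Col16a1 had a ratio of 0.581 (0.511 to 0.662), Col6a3 of 0.649 (0.603 to 0.701) and Col6a2 of 0.758 (0.703 to 0.819). Col14a1 was at 0.810 (0.728 to 0.901) and Col6a1 at 0.915 (0.853 to 0.983). All 6 ratios were thus below 1, and for each member but Col14a1 the ratio was above that of the wild-type library. The 2 comparisons share no cells. The fibroblast markers summed to 7105 CPM in mutant and 781 in wild-type Scx-high cells, with 0 of 8 markers at 0 in both, and their part in these ratios was not tested.

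**Figure D2:**
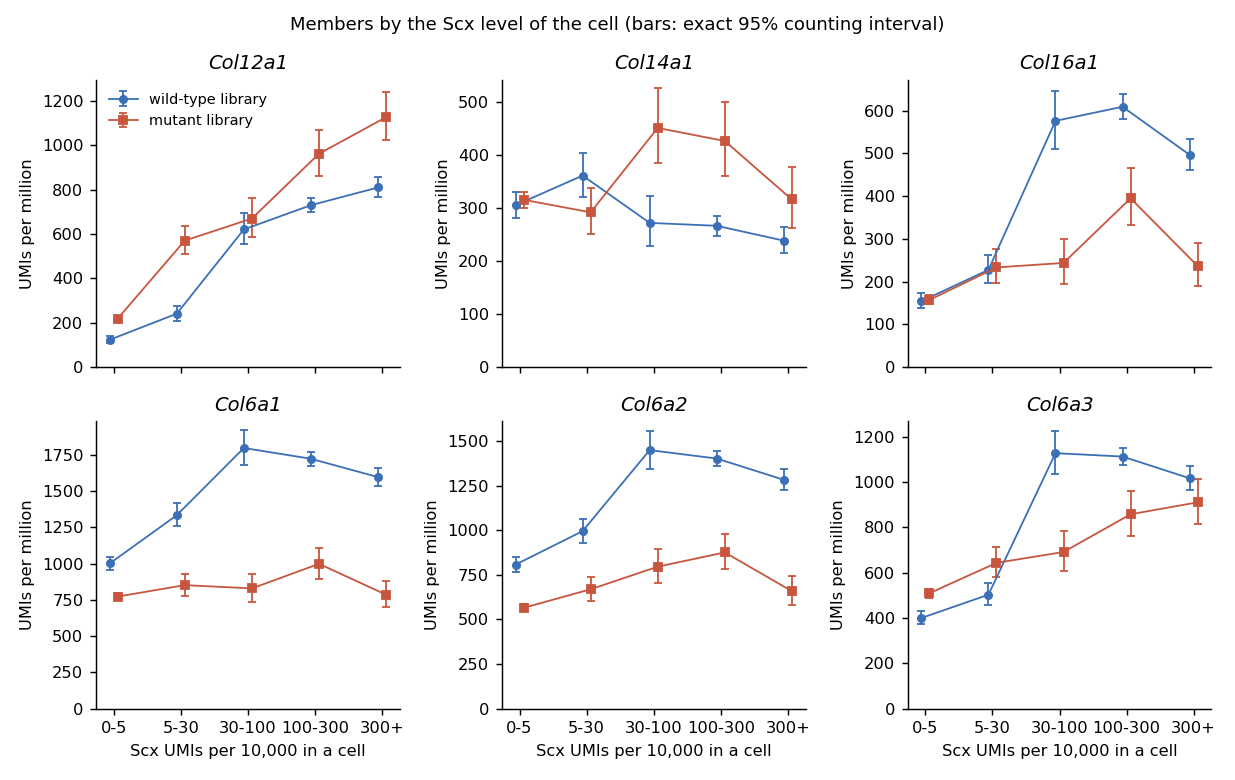
Level of each member in CPM (vertical axis, from 0) in Scx-high cells, Scx-low fibroblasts and unassigned cells binned by their Scx UMIs per 10000 (horizontal axis), for wild-type (circles) and mutant (squares) libraries, with exact 95% counting intervals as bars. Col12a1 is higher in each bin than in the one before in both libraries, reaching 809 and 1126 CPM in the last. Wild-type Col6a3 is at 503 CPM in the bin of 5 to under 30 and 1128 in the bin of 30 to under 100.

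Scx-high cells, Scx-low fibroblasts and unassigned cells were also binned by their own Scx. Col12a1 stood at 123, 241, 620, 730 and 809 CPM in wild-type cells with under 5, 5 to under 30, 30 to under 100, 100 to under 300 and at least 300 Scx UMIs per 10000. In the mutant library it stood at 219, 570, 669, 961 and 1126 CPM. It was the one member whose level was higher in each bin than in the bin before it in both libraries, and in the 5 to under 30 bin the mutant level was above the wild-type interval of 208 to 277. Col6a3 was ordered in the same way in the mutant bins, at 509.9, 644, 692, 858 and 911 CPM. In the wild-type library it stood at 503 CPM in the bin below the cut at 30, 1128 in the bin above it and 1017 in the highest bin. Col6a1 stayed between 773 and 999 CPM in all 5 mutant bins and between 1001 and 1797 in the wild-type bins, with no overlap of its intervals between libraries in any bin. Col14a1 stood at 305 CPM in the lowest and 238 in the highest wild-type bin, with its highest level of 361 at 5 to under 30. In the mutant library its highest level was 451 CPM, at 30 to under 100. The mutant bins above 30 held 90, 79 and 66 cells. Bins from 30 up include 24 wild-type and 17 mutant cells with markers of another type, while such cells are left out of the bins below 30.

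How the members differed between genotypes within Scx-high cells was read from mutant over wild-type. The paper describes cells of P7 mutant tendons that are positive for ScxGFP as newly recruited, some with little or no RosaT signal. Whether the Scx-high cells of both libraries are the same kind of cell was not tested. In these cells 0 of 6 members were at least 2-fold lower, where 5.87% of 7467 genes were, and 0 were at least 2-fold higher, where 10.7% were. Col16a1 and Col6a1 lay just inside 2-fold, at 0.508 (0.450 to 0.571) and 0.514 (0.480 to 0.550). Col6a2 was at 0.565 (0.525 to 0.607) and Col6a3 at 0.757 (0.705 to 0.813). All 3 chains of type VI collagen were thus lower in the mutant library, and the α3 chain gene less so than the others. The FACIT genes of the fibril surface had ratios above 1, of 1.24 (1.16 to 1.33) for Col12a1 and 1.53 (1.37 to 1.71) for Col14a1. The median of all genes was shifted by 0.28 on the log2 scale. Relative to it Col12a1 was at 0.04, Col14a1 at 0.34, Col16a1 at -1.25, Col6a1 at -1.24, Col6a2 at -1.10 and Col6a3 at -0.68, so Col12a1 lay at the median gene. In wild-type and mutant Scx-high cells, fibroblast markers summed to 781 and 7105 CPM, mural markers to 395 and 951, muscle markers to 0.814 and 459, and markers of dividing cells to 187 and 449.7. All were counted in both except 4 of 7 muscle markers at 0 in the wild-type cells, and the part of the fibroblast markers in these ratios was not tested. Without cells that had at least 2 UMIs of the dividing-cell markers the ratios ranged from 0.503 (Col6a1) to 1.57 (Col14a1). Without cells carrying markers of another type, 24 wild-type and 17 mutant, they ranged from 0.531 (Col16a1) to 1.62 (Col14a1). Some Scx-high cells also kept Tnmd, at least 10 UMIs per 10000. In them the ratios as counted were 1.45 (1.34 to 1.56) for Col12a1, 1.80 (1.61 to 2.02) for Col14a1 and 0.565 (0.525 to 0.607) for Col6a1. The other members are not given for this subset, nor are values centred on the median gene.

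The paper reports that most cells of P7 mutant tendons had lost ScxGFP and came from tenocytes, whereas wild-type tendon cells kept it. Whether the Scx-low fibroblasts of both libraries are the same kind of cell was not tested. Their subsets also took unequal shares in the libraries (given further on). In Scx-low fibroblasts, 0 of 6 members were at least 2-fold lower in the mutant library, where 4.34% of 9203 genes were, and 0 were at least 2-fold higher, where 4.16% were. Col12a1 had the highest ratio, 1.68 (1.51 to 1.88), followed by Col6a3 at 1.25 (1.17 to 1.34). Col14a1 was at 0.973 (0.897 to 1.05) and Col16a1 at 0.985 (0.881 to 1.10), and both intervals held 1. Col6a1 was at 0.723 (0.690 to 0.757) and Col6a2 at 0.676 (0.641 to 0.712). The median gene was at -0.03 on the log2 scale. Col6a3 thus lay on the other side of 1 from its partner chains in Scx-low fibroblasts, and on the same side in Scx-high cells. The comparisons in these 2 classes share no cells. Median depths in Scx-low fibroblasts were 3610 wild-type and 2885 mutant UMIs.

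**Figure D3:**
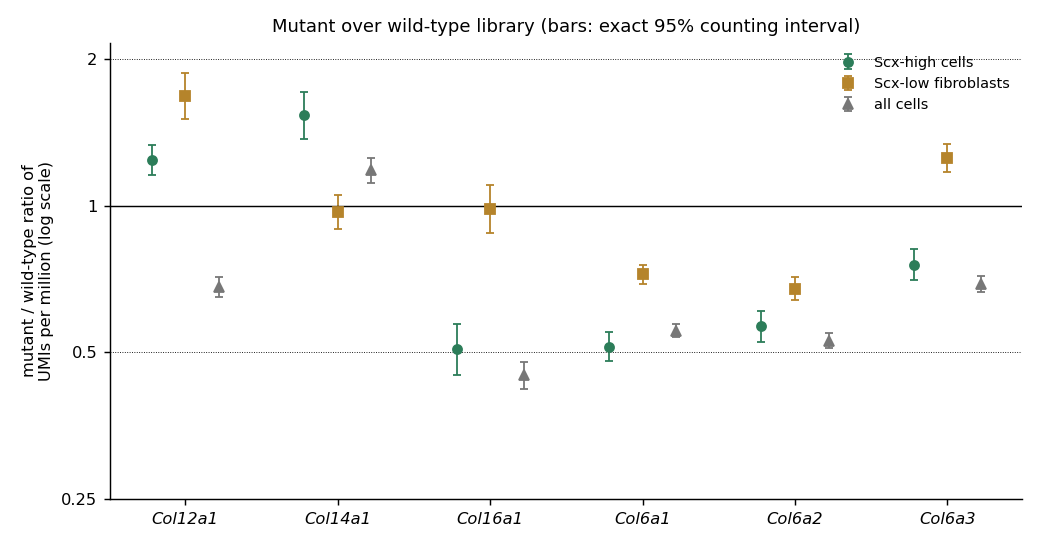
Ratio of CPM in the mutant over the wild-type library (vertical axis, log scale) for each member in Scx-high cells (circles), Scx-low fibroblasts (squares) and all cells (triangles), with exact 95% counting intervals as bars, a solid line at 1 and dotted lines at 2-fold. Col12a1 is above 1 in both classes as counted, at 1.24 and 1.68, and below 1 over all cells, at 0.681. In Scx-high cells its ratio lay at the median gene.

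Over all cells of the libraries, 1 of 6 members was at least 2-fold lower in the mutant, where 3.98% of 10998 genes were, and 0 were at least 2-fold higher, where 6.14% were. That member was Col16a1, at 0.448 (0.421 to 0.478). Col6a2 was at 0.528 (0.510 to 0.548), Col6a1 at 0.554 (0.537 to 0.572), Col12a1 at 0.681 (0.648 to 0.716), Col6a3 at 0.690 (0.664 to 0.717) and Col14a1 at 1.18 (1.12 to 1.25). The median gene was shifted by 0.19 on the log2 scale. The classes took different shares of the UMIs, since Scx-high cells held 52.0% of wild-type and 13.1% of mutant UMIs. With every class held at its wild-type level and only these shares set to those of the mutant library, Col12a1 would have been at 0.483. With the shares held and only the levels changed, it would have been at 1.24. For Col6a1 the same values were 0.825 and 0.574, and for Col6a2 0.812 and 0.601, so for these chains the change of levels alone gave the value further from 1. For Col6a3 they were 0.648 and 0.855, and for Col16a1 0.571 and 0.575. Of all Col12a1 UMIs, 85.3% were in Scx-high cells and 9.84% in Scx-low fibroblasts of the wild-type library, and 39.3% and 58.4% in the mutant library.

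To set the abundant mutant cells against the abundant wild-type cells, mutant Scx-low fibroblasts were also put over wild-type Scx-high cells. Here 5 of 6 members were at least 2-fold lower, where 5.74% of 9481 genes were, and 0 were at least 2-fold higher, where 19.3% were. The ratios were 0.295 (0.274 to 0.318) for Col16a1, 0.349 (0.329 to 0.371) for Col12a1, 0.429 (0.411 to 0.447) for Col6a2, 0.470 (0.454 to 0.488) for Col6a1 and 0.492 (0.470 to 0.514) for Col6a3. Col6a3 was at 0.503 after thinning, which left 4 members past 2-fold. This comparison shares its cells with those above. Col14a1 was at 1.24 (1.16 to 1.33) as counted and at 0.948 when centred on the median gene, which was shifted by 0.39 on the log2 scale.

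Scx-low fibroblasts were not uniform. Those that kept Tnmd, at least 10 UMIs per 10000, were 130 wild-type and 411 mutant cells. The others are called Tnmd-low, although they could hold Tnmd UMIs below this cut. They were split by Pi16, a gene of adventitial fibroblasts, into 296 and 334 cells with a UMI of it and 291 and 1082 without. Against the Tnmd-low cells without Pi16, Tnmd-keeping cells had 3.26 times (2.60 to 4.07) the Col12a1 level in the wild-type and 2.23 times (2.00 to 2.49) in the mutant library. Their Col16a1 level was 2.47 times (1.94 to 3.13) and 1.99 times (1.73 to 2.30) as high, and their Col14a1 level 1.74 times (1.42 to 2.11) and 1.65 times (1.48 to 1.83). Their type VI chains were between 1.08 and 1.36 times as high in both libraries. Pi16-positive cells had a lower Col12a1 level than the Tnmd-low cells without Pi16, at 0.590 (0.450 to 0.770) and 0.806 (0.683 to 0.949). Their Col14a1 was higher in the wild-type library, at 1.65 (1.42 to 1.93), while the mutant interval of 0.965 to 1.24 held 1.

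The genotype ratios also depended on the subset. In Tnmd-keeping Scx-low fibroblasts Col12a1 was at 1.07 (0.910 to 1.28) for mutant over wild-type. It was at 2.14 (1.66 to 2.78) in Pi16-positive cells and at 1.57 (1.31 to 1.89) in the Tnmd-low cells without Pi16. Col6a1 was at 0.559 (0.507 to 0.617), 0.843 (0.771 to 0.921) and 0.693 (0.648 to 0.743) in these subsets, below 1 in each. Col6a3 was at 0.966 (0.840 to 1.12), 1.52 (1.33 to 1.73) and 1.13 (1.02 to 1.25). Of the 3 subsets, Pi16-positive cells had the highest ratio for each of Col12a1, Col6a1 and Col6a3. The other members are not given for these subsets, nor are values centred on the median gene.

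**Figure D4:**
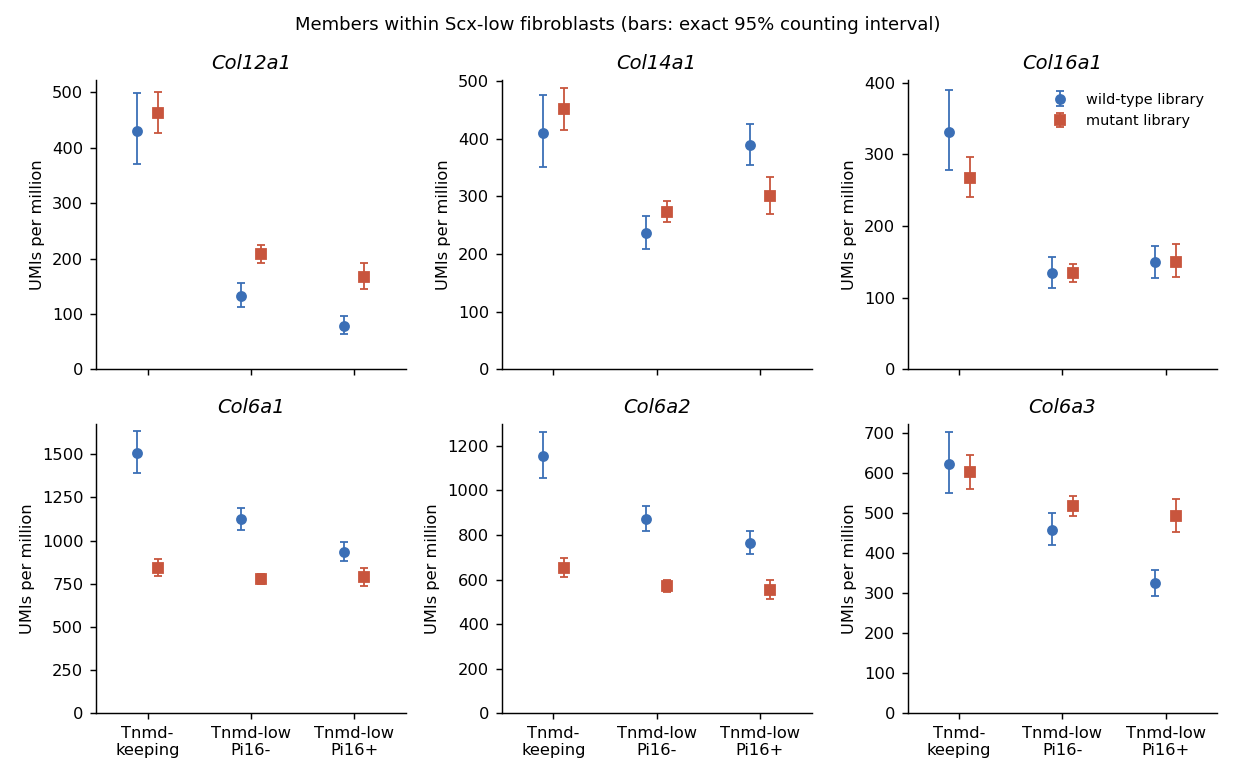
Level of each member in CPM (vertical axis, from 0) in Scx-low fibroblasts that kept Tnmd, in Tnmd-low cells without Pi16 (Pi16-) and in Tnmd-low cells with Pi16 (Pi16+), for wild-type (circles) and mutant (squares) libraries, with exact 95% counting intervals as bars. Col12a1 and Col16a1 are highest in the Tnmd-keeping cells of both libraries, and Col6a1 and Col6a2 are lower in the mutant library in all 3 subsets.

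The Scx-high cells of the wild-type library included 448 with at least 10 UMIs of Col2a1 per 10000, the cartilage collagen. Col16a1 was 1.42 times (1.32 to 1.53) as high in them as in the other 730, and the other members between 1.08 and 1.19 times. In dividing wild-type Scx-high cells, 82 in number, Col12a1 stood at 0.784 (0.690 to 0.888) of the level of the others and Col16a1 at 0.773 (0.667 to 0.891). The type VI chains stood between 0.815 and 0.846 there, and the Col14a1 interval of 0.829 to 1.22 held 1.

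Type VI collagen is assembled from its 3 chains in a fixed proportion, so the share of each among their UMIs was followed across classes. UMIs were counted at 3′ ends and not scaled to length, and genes may be captured unequally, so shares are compared between classes only. Col6a3 made up 26.2% (25.6 to 26.8) of the type VI UMIs in Scx-high cells, 17.8% (16.9 to 18.7) in Scx-low fibroblasts and 34.0% (31.1 to 37.0) in mural cells of the wild-type library. In the mutant library its shares were 33.3% (31.6 to 35.2), 27.9% (27.0 to 28.7) and 41.6% (36.2 to 47.1). The order of the classes was the same in both libraries, and in Scx-high cells and Scx-low fibroblasts the mutant interval lay above the wild-type one. In mural cells the intervals overlapped. Col12a1 made up 74.2% (73.0 to 75.4) of the UMIs of Col12a1 and Col14a1 together in wild-type Scx-high cells and 31.9% (29.4 to 34.5) in Scx-low fibroblasts. In the mutant library these shares were 70.0% (67.5 to 72.3) and 44.7% (43.0 to 46.4), so the classes were closer together.

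**Figure D5:**
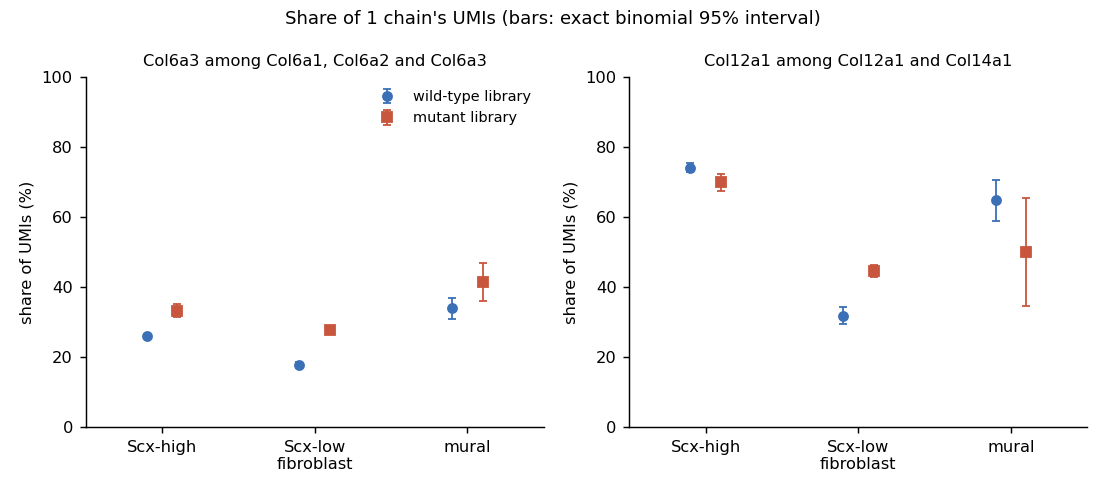
Share of Col6a3 among the UMIs of the 3 type VI chains (left) and of Col12a1 among those of Col12a1 and Col14a1 (right), in percent (vertical axis), in Scx-high cells, Scx-low fibroblasts and mural cells of the wild-type (circles) and mutant (squares) libraries, with exact binomial 95% intervals as bars. The Col6a3 share is 26.2% in wild-type and 33.3% in mutant Scx-high cells, and the Col12a1 share separates Scx-high cells (74.2%) from Scx-low fibroblasts (31.9%) most in the wild-type library.

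In mural cells, 1 of 6 members was at least 2-fold lower in the mutant library, where 2.94% of 2787 genes were, and 0 were at least 2-fold higher, where 3.70% were. That member was Col12a1, with 175 wild-type and 22 mutant UMIs and a ratio of 0.327 (0.200 to 0.510). With fibroblasts assigned before other types its ratio was 0.523, short of 2-fold. Col6a3 was at 1.03 (0.842 to 1.26), and the other members were between 0.581 (Col16a1) and 0.776 (Col6a2), with intervals below 1. With fibroblasts assigned first, 40 wild-type and 45 mutant mural cells remained. Col14a1 then had 2 and 0 UMIs, too few for a ratio. The median gene was shifted by 0.10 on the log2 scale. Mural cells were fewer and shallower in the mutant library, with a median of 2962 against 4524 UMIs. The wild-type mural cells also held 5558 CPM of the fibroblast markers, against 3255 in the mutant, and 8082 CPM of haemoglobin, against 279. Scx stood at 314 CPM in wild-type and 42.7 in mutant mural cells. None of the fibroblast or haemoglobin markers was at 0, and their part in the mural ratios was not tested.

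The pattern of each member over 15 points, each a class of at least 20 cells in 1 library, was set against 4120 genes with at least 500 UMIs, by Pearson correlation of log2(CPM + 10). The points share libraries and a few classes without collagen set much of each correlation, so values are descriptions. Col6a1 and Col6a2 were each other's closest gene, with r = 0.986, and Col6a3 was the third closest to both. Pcolce, an enhancer of procollagen processing, stood between them, at 0.979 and 0.971. The closest genes to Col12a1 were Mfap4 (0.962), a microfibril-associated protein, Pdgfrl (0.961) and Angptl2 (0.952), and to Col16a1 Fkbp11 (0.949), followed by Col12a1 (0.932) and Col6a2 (0.931). Col6a3 was closest to Col6a1 (0.974), Col6a2 (0.965) and Mfap4 (0.960). For Col14a1 they were Fndc4 (0.95), P3h1 (0.939), a collagen prolyl hydroxylase, and Fbn2 (0.929), a fibrillin of microfibrils. The correlations of Col14a1 with the other members lay between 0.824 (Col16a1) and 0.892 (Col6a2), and it ranked 81 among the genes closest to Col12a1.

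The other chains of these families were scarce. Of 10 other FACIT and type VI chains listed, 9 were in the table, and 2 had at least 50 UMIs in Scx-high cells of both libraries together. They were Col9a2 and Col22a1. Col9a2 was at 0.313 (0.112 to 0.709) in mutant over wild-type, on 6 mutant and 87 wild-type UMIs. It thus met the cut through the group where it is high. Col22a1, a collagen of tissue junctions such as the one between muscle and tendon, was at 5.74 (4.26 to 7.75). Muscle markers summed to 459 CPM in mutant and 0.814 in wild-type Scx-high cells, and their part in the Col22a1 ratio was not tested. In Scx-low fibroblasts Col22a1 was at 0.150 (0.104 to 0.214). Col6a6, a further α chain of type VI collagen, was found mainly in Scx-low fibroblasts, at 67.2 CPM (wild-type) and 53.6 CPM (mutant), against 2.64 and 5.54 in Scx-high cells, on 13 and 6 UMIs.

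Partners and receptors of these collagens lay on both sides of 1. Of 20 listed, 17 had enough UMIs in Scx-high cells, of which 4 were at least 2-fold lower and 5 at least 2-fold higher in the mutant library, against 5.87% and 10.7% of all genes. Their median log2 ratio was 0.34, against 0.28 for all genes. The members had a median of -0.61 there. The lower ones included Dcn, the proteoglycan decorin, at 0.451 (0.439 to 0.462), and Antxr1, a receptor that binds the α3 chain of type VI collagen, at 0.444 (0.362 to 0.539). The higher ones included Fn1, fibronectin, at 5.94 (5.63 to 6.27), and Mmp2, a gelatinase, at 2.40 (2.17 to 2.66). Lum, also among them, was used to choose Scx-low fibroblasts and is not read as a result between classes. In Scx-low fibroblasts 3 of 17 partners were at least 2-fold lower, among them Tnxb, tenascin X, at 0.322 (0.293 to 0.353), and 1 was at least 2-fold higher, Mmp2 at 2.18 (2.04 to 2.34), against 4.34% and 4.16% of all genes. Of 29 remaining collagen genes, 17 had enough UMIs in Scx-high cells, of which 6 were at least 2-fold lower and 8 at least 2-fold higher in the mutant library (5.87% and 10.7% of all genes). In Scx-low fibroblasts 4 of 19 were at least 2-fold lower and 2 higher (4.34% and 4.16%). Col3a1 was also used to choose Scx-low fibroblasts, and it is among the collagen genes counted in both classes. It was one of the higher ones in Scx-high cells, at 8.39. In Scx-low fibroblasts it was at 0.888, short of 2-fold, and this value is not read as a result.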

How the data were processed

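Cells were processed with 10x Genomics Chromium 3′ kits. The authors aligned reads to mm10 with Cell Ranger and selected barcodes by total UMI count. Their methods and the labels name different versions of the tool, and the labels give 1.2.0. The deposited values are raw UMI counts per gene and cell, without normalization, and all barcodes were used. PCR copies are collapsed by the UMI.

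UMIs were summed over each class and divided by its total (CPM). Scx-high cells were assigned first, then other types with at least 5 UMIs over at least 3 detected markers (red blood cells with over 50% haemoglobin UMIs), then Scx-low fibroblasts, by the cuts given with the results. The cuts for other types were set after the classes had been seen, as were the splits by Tnmd, Pi16, Col2a1 and cycling markers. Near the Scx cut, 42 wild-type and 27 mutant cells had 20 to under 30 UMIs per 10000 and 28 and 26 had 30 to under 40. The members and gene lists were chosen with earlier results of these data known. The named genes were the 6 members, the lists of related chains and partners, and the 3 closest genes of each member. Ratios have exact conditional intervals, levels Poisson and shares Clopper-Pearson intervals. The ratio intervals were run on simulated data for mutant over wild-type in Scx-high cells, with 7467 genes of which 200 were changed. Of these intervals, 96.0% held the true ratio. The simulated class sums were drawn from a Poisson distribution, as the intervals assume, so this checks the calculation only. It cannot show how the intervals would cover spread between cells or libraries. Level and share intervals were not simulated. Scrublet in Scanpy 1.11.5, with an expected rate of 2%, called 10 and 5 cells (0.423% and 0.193%), too few to rely on, and doublets stayed in. Cells were thinned to 1644 UMIs, the 10th percentile over both main classes. Alternatives are given in the closing section. Python 3.11.15, NumPy 2.4.6, SciPy 1.17.1 and pandas 2.3.3 were used.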

Additional observations from a re-analysis of the deposited data

Results flagged for a closer look

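The difference between classes ran in opposite directions in the libraries for Col14a1. Scx-low fibroblasts over Scx-high cells was 1.28 (95% interval 1.17 to 1.39) among wild-type cells and 0.810 (0.728 to 0.901) among mutant cells. When centred on the median gene the wild-type value was 0.951, so the opposite direction rests on the scaling. The genotype difference ran in opposite directions in the classes for Col6a3, with mutant over wild-type at 0.757 (0.705 to 0.813) in Scx-high cells and 1.25 (1.17 to 1.34) in Scx-low fibroblasts. With 1 library per genotype neither difference was tested, and the intervals cover counting error only. Within Scx-low fibroblasts the Col6a3 ratio also depended on the subset, as given above. In the Tnmd-keeping cells its interval held 1.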

How the results depend on the processing

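No paired analysis was possible because each genotype had 1 library, and leaving out a replicate was not possible for the same reason. Of 545 ratios recomputed under 13 alternatives, 454 stayed within the counting interval of the reported value. Another 89 left it without a change of direction, and 2 left it with one. These 2 were Col14a1 in wild-type Scx-low fibroblasts over Scx-high cells (0.951) and in mutant Scx-low fibroblasts over wild-type Scx-high cells (0.948), both when centred on the median gene. Some mutant over wild-type ratios crossed 1 within intervals that held 1. They were Col14a1 (up to 1.05) and Col16a1 (up to 1.03) in Scx-low fibroblasts, and Col6a3 in mural cells (down to 0.963). The number of members at least 2-fold lower in mutant Scx-high cells, 0 as reported, was 1 with a Scx cut of 20 and after thinning, 2 with the mean of counts scaled per cell, and 3 without the 20 most abundant genes in the total or when centred. These counts turn on Col16a1, Col6a1 and Col6a2, whose reported ratios lie close to 0.5. In wild-type Scx-low fibroblasts over Scx-high cells, 3 became 5 when centred. Over all cells, 1 became 2 with the mean per cell and after thinning, and 3 without the 20 most abundant genes or when centred. In mural cells, 1 became 2 with other types assigned before Scx-high cells and with the mean per cell, and 3 after thinning and without cycling cells, an alternative chosen after seeing the data. With fibroblasts assigned before other types, mural Col12a1 was at 0.523, short of 2-fold, and the 1 member still counted was Col14a1, on 0 mutant and 2 wild-type UMIs, too few for a ratio. In mutant Scx-low fibroblasts over wild-type Scx-high cells, 5 became 4 after thinning, with Col6a3 at 0.503. All 6 values that moved by over 1.5 times were in mural cells, 1 of Col12a1, 3 of Col14a1 and 2 of Col16a1, on 22, 22 and 17 mutant UMIs. The cause of these shifts was not tested. Few cells limit the mural, endothelial and neural values.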
